A study of Mus musculus with 2 samples.

Results

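Lyz1, Lyz2, Chil1, Chia1 and Retnla are 5 genes for secreted proteins of innate defence and tissue repair, of 27998 genes in the count tables. They were chosen by values measured in these same libraries, namely their levels and shares of positive cells in alveolar and airway epithelium, so their levels and differences are given below as a description, with no test. The rule took all rows of the tables with these gene names, and all 5 were found. Single cells of the lungs of C57Bl6 mice were profiled with a droplet method that counts the 3′ ends of transcripts by unique molecular identifiers (UMIs). All mice had received bleomycin, which injures the lung epithelium and leads to fibrosis, on day 1. One group was then given vehicle and the other navitoclax (ABT-263), an inhibitor of anti-apoptotic BCL-2 family proteins, from day 15 to day 20, and lungs were taken 21 days after injury. Epithelial and stromal cells were sorted and mixed in equal parts, so that shares of cells reflect the sort. Each group is 1 library, the labels do not say how many mice stand behind it, and no uninjured group is included. No difference between the libraries therefore has a replicate check. All intervals are 95% intervals for counting error only and do not cover differences between single cells, mice or preparations.

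Lysozymes cleave the peptidoglycan of bacterial cell walls. The mouse has a pair of neighbouring genes for them, of which Lyz2 is known from macrophages and alveolar type II (AT2) cells, which make surfactant and renew the alveolar lining, and Lyz1 from Paneth cells of the gut. Chia1 encodes acidic mammalian chitinase, which digests chitin, whereas the product of Chil1 is a related lectin that binds chitin without cutting it and is secreted in injury and inflammation. Retnla encodes RELMα, a small secreted protein that rises in macrophages and airway epithelium under the type 2 cytokines IL-4 and IL-13, which act through the transcription factor STAT6.

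In GRCm38, Lyz2 (ENSMUSG00000069516) lies on chromosome 10 at 117277331 to 117282321 and Lyz1 (ENSMUSG00000069515) at 117287797 to 117292868, both on the minus strand, with 5475 bases between them (GENCODE M21). Chil1 (ENSMUSG00000064246) lies on chromosome 1 at 134182176 to 134190181, Chia1 (ENSMUSG00000062778) on chromosome 3 at 106113229 to 106132120 and Retnla (ENSMUSG00000061100) on chromosome 16 at 48842551 to 48844461, all on the plus strand. All 5 are annotated as protein-coding. The 2 lysozyme promoters are shown because the genes are near copies and their levels in single AT2-like cells went in opposite directions. Each is the 250 bases before the RefSeq start, 5′ to 3′ on the gene's strand in GRCm38.p6, and capitals mark runs of at least 10 bases that are identical in the alignment of both.
Lyz1, chr10:117292869-117293118, minus strand: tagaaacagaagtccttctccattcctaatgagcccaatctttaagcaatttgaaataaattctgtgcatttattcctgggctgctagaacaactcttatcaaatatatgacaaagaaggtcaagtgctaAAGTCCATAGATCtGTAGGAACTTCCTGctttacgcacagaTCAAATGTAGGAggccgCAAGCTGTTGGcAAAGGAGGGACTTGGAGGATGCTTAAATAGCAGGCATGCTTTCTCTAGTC
Lyz2, chr10:117282273-117282522, minus strand: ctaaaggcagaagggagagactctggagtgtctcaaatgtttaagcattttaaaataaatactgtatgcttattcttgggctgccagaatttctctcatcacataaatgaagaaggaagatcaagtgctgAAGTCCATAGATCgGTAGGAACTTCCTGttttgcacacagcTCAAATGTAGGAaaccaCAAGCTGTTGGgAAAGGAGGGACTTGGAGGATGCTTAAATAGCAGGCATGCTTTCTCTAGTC
In these windows 200 of 252 aligned columns were identical (79.4%), and the longest shared run, at the RefSeq start, was 50 bases. The Lyz2 window ends within the gene as annotated in GENCODE, whereas the Lyz1 window ends at the edge of its gene. The longest annotated coding transcripts, of 1263 bases for Lyz1 and 1316 bases for Lyz2, were 91.95% identical over their length and 93.8% over their last 300 bases, where 3′ reads fall. There the longest run in common was 104 bases. A read within such a run cannot be assigned to 1 of the genes, so the division of counts between Lyz1 and Lyz2 carries an uncertainty that the counting intervals do not cover.

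The Retnla promoter is printed because STAT6 acts on this gene. Capitals mark matches to the palindromic STAT6 motif, TTC and GAA with 4 bases of any kind between them, and to TTGCNNAA, a C/EBP motif, searched on both strands.
Retnla, chr16:48842359-48842608, plus strand: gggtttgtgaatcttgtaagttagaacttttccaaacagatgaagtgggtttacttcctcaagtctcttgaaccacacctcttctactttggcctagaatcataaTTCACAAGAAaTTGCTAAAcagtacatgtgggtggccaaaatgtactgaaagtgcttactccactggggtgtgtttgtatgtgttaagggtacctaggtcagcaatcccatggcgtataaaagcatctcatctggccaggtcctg
It held 1 match to each motif, and the matches did not overlap. The first began 145 bases before the RefSeq start. Of 32851 mouse promoters of this length, 5.85% held a match to the STAT6 motif and 9.56% to the C/EBP motif. None of the other 4 promoters held the STAT6 motif in this window, and Lyz1 held 1 match to TTGCNNAA. The windows of Retnla, Chia1 and Lyz2 run past the GENCODE start, so a part of each lies within the annotated gene.

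In all, 97958947 UMIs were counted with vehicle and 98517048 with navitoclax, and 7174 and 6228 cells remained after filtering and removal of called doublets. The libraries had 20 cell barcodes in common. Cells were clustered without the 5 genes, which gave 39 clusters named from marker genes. AT2-like cells numbered 2474 in the vehicle and 2211 in the navitoclax library, with the surfactant gene Sftpc at 224619 and 235369 CPM. Transitional-like cells, an intermediate between AT2 and type I (AT1) cells, numbered 202 and 265, AT1-like cells 139 and 52, and ciliated-like cells 360 and 401. Club-like cells, the secretory cells of the airway, numbered 99 and 90, and fibroblast-like cells 3605 and 3013. The name of transitional-like cells was close, since their cluster scored 0.595 for AT2 and 0.524 for transitional markers. Cluster 12, 1 of the club-like clusters, scored 0.974 for neuroendocrine and 0.899 for club markers. Of its 10 leading genes 7 were club markers, by which it was named. Cluster 9, with 136 and 89 cells that carried both AT2 and airway secretory genes (Ltf, Cyp2f2), received no name. Levels in fibroblast-like cells are given beside the others for reference, since free RNA in droplets was not measured.

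**Figure D1:**
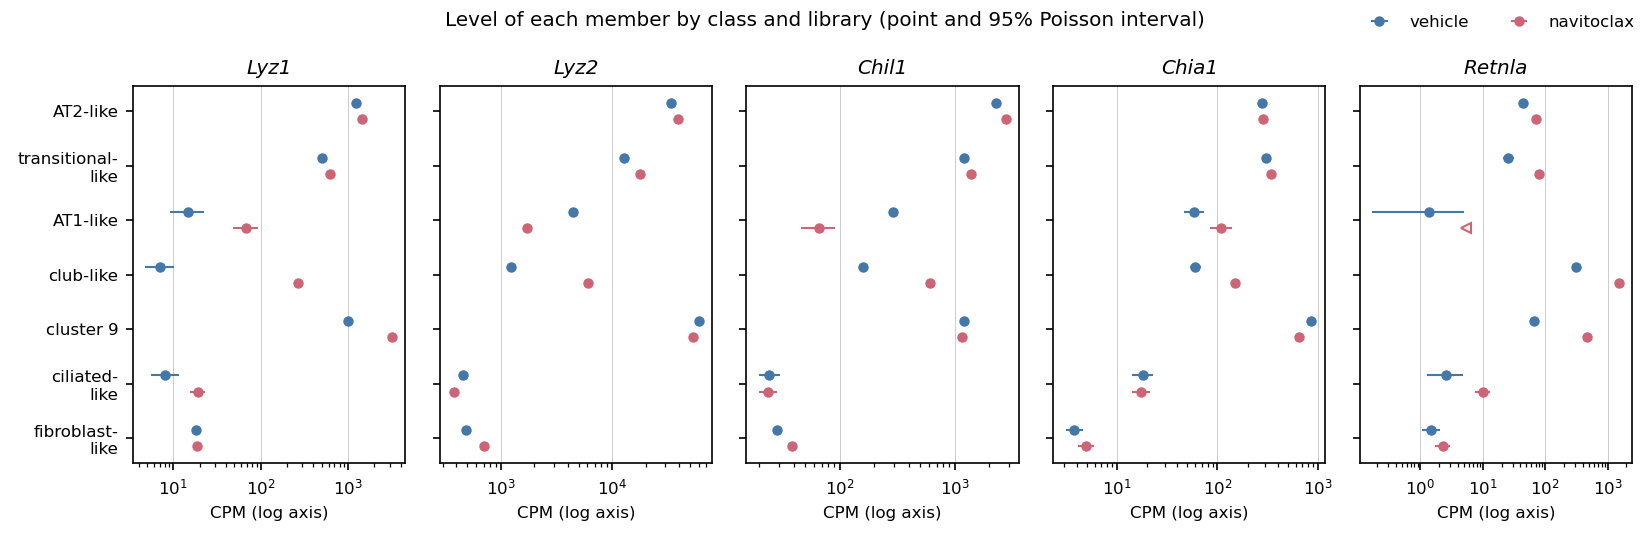
Level in CPM (the share of a class's summed UMIs in parts per 1000000, log axis) of each of the 5 genes by class, in the vehicle (blue) and navitoclax (red) library, with 95% Poisson intervals, which are narrower than most points. The open triangle marks a class with no UMI at the level of 3 counts. Lyz2, Lyz1, Chil1 and Chia1 were highest in AT2-like cells or cluster 9, and Retnla was highest in club-like cells.

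Lyz2, the main lysozyme of these cells, was at 33817 CPM (33762 to 33871) in vehicle and 39522 CPM (39463 to 39580) in navitoclax AT2-like cells. CPM is the share of a class's summed UMIs in parts per 1000000. Single cells of the class ranged widely, with the middle 80% between 13355 and 51279 CPM in the vehicle and between 17436 and 56954 CPM in the navitoclax library. The distributions over cells thus overlapped for most of their range. The ratio of the navitoclax to the vehicle library was 1.17 (1.166 to 1.171). The level was higher in cluster 9, at 60915 and 53717 CPM, and lower in transitional-like cells, at 12944 and 17999 CPM. AT1-like cells followed with 4447 and 1704 CPM and club-like cells with 1242 and 6123 CPM, an order that changed between the libraries. In AT1-like cells 1 in 10 cells held 94.5% and 78.7% of the UMIs, and the median cell was at 351 and 527 CPM. The direction in AT1-like cells turned with the way cells were named, from a log2 ratio of −1.38 to 1.78 when each library was clustered alone. Ciliated-like cells (457 and 382 CPM) lay below fibroblast-like cells (482 and 711 CPM). Without cluster 37, a fibroblast-like cluster that carried AT2 transcripts, fibroblast-like cells were at 339 and 433 CPM. The vehicle ciliated-like level lay above that and the navitoclax level below it. A UMI of Lyz2 was seen in 88.4% and 95.02% of fibroblast-like cells, at median depths of 7236 and 7812 UMIs. Whether these came from free RNA, mixed droplets or the cells themselves was not tested.

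Lyz1 was at 1243 CPM (1233 to 1253) in vehicle and 1434 CPM (1423 to 1445) in navitoclax AT2-like cells, a ratio of 1.15 (1.14 to 1.17). This average describes few cells. A UMI of Lyz1 was seen in 34.3% of vehicle and 41.2% of navitoclax AT2-like cells, and the 10% of cells with most Lyz1 held 98.3% and 97.7% of its UMIs. Among fibroblast-like cells 7.13% and 13.9% had a UMI. After thinning each cell to 2000 UMIs the shares were 14.2% (12.8 to 15.6) and 16.5% (15.0 to 18.1) of AT2-like cells, against 1.95% and 3.78% of fibroblast-like cells. Transitional-like cells reached 506 and 624 CPM and cluster 9 reached 1011 and 3184 CPM, of which a single cell held 30.4% and 40.4%. Club-like cells had 30 vehicle and 882 navitoclax UMIs, and 57.4% of the latter lay in 1 cell.

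A minority of AT2-like cells carried Lyz1 at the level of a major transcript. At or above 1000 CPM, a limit set after the values were seen, were 231 of 2474 vehicle cells (9.34%, 8.22 to 10.6) and 222 of 2211 navitoclax cells (10.0%, 8.82 to 11.4), so the share did not differ beyond counting error. They held 97.8% and 97.6% of the Lyz1 UMIs, at a median of 10177 and 11769 CPM. By contrast 1625 vehicle and 1301 navitoclax cells had no UMI of Lyz1. These cells together held 952123 and 1013749 UMIs of Lyz2. The Lyz1-rich cells were spread over the AT2-like clusters. They made up 5.88% (1 of 17) to 13.3% (4 of 30) of the vehicle cells. In the navitoclax library they made up 3.33% (1 of 30) to 13.7% (7 of 51). The ends of both ranges thus rest on few cells.

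In the Lyz1-rich cells Lyz2 was lower. Its median was 20101 CPM in the 231 vehicle cells and 32445 CPM in the other AT2-like cells, and 24422 and 39459 CPM in the navitoclax library. The summed level of both lysozymes was close in rich and other cells, with medians of 33939 and 32450 CPM in the vehicle and 39605 and 39614 CPM in the navitoclax library. Over steps of Lyz1 the median of Lyz2 stayed between 31695 and 35607 CPM up to 1000 CPM of Lyz1 in the vehicle library. The median of Lyz2 was 27261 CPM between 1000 and 5000 CPM of Lyz1 and between 16922 and 19813 CPM above 5000 CPM. In the navitoclax library the same steps gave 38898 to 40702, 28341, and 23204 to 26095 CPM. Over the same steps above 1000 CPM the summed level was not constant, with medians from 24584 to 47074 CPM in the vehicle and from 32706 to 49269 CPM in the navitoclax library. With a limit of 5000 CPM the contrast was as large, at 19475 against 32381 CPM and 23702 against 39166 CPM. Within single AT2-like clusters with at least 10 rich cells, the median of Lyz2 was lower in rich cells in 12 of 13 cluster and library pairs. The exception was cluster 10 of the vehicle library, with 11 rich cells at 17730 CPM and 90 others at 15023 CPM.

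**Figure D2:**
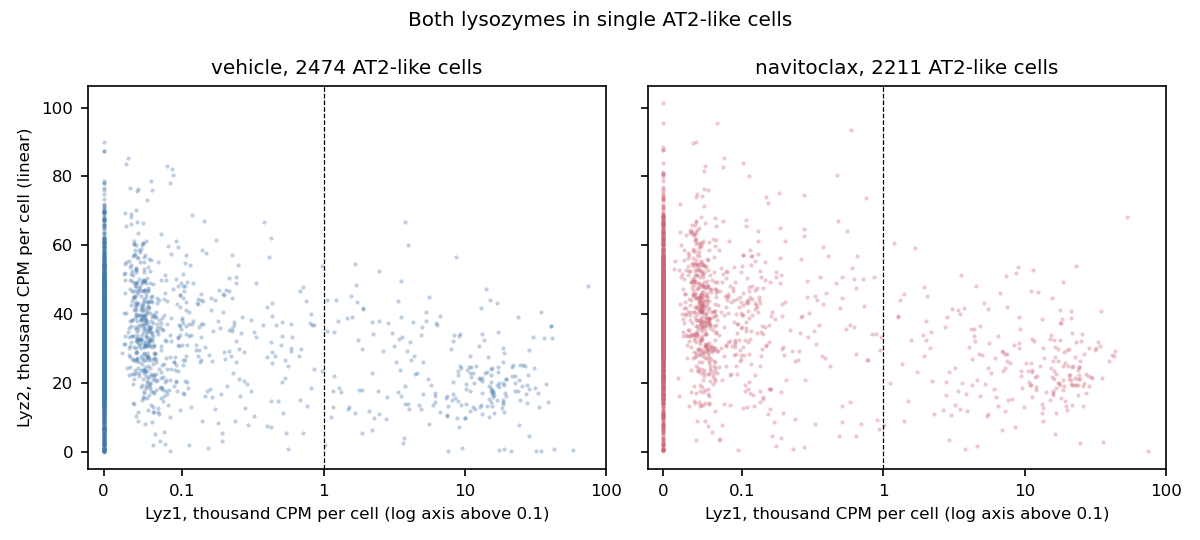
Lyz1 (x axis, units of 1000 CPM, logarithmic above 0.1) and Lyz2 (y axis, units of 1000 CPM, linear) in each AT2-like cell of the vehicle (left) and navitoclax (right) library. The dashed line marks 1000 CPM of Lyz1, and cells to its right, 231 and 222, have a lower median of Lyz2 than cells to its left in both panels.

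Of 9953 genes with at least 100 UMIs in the AT2-like cells of each library and more than 3 in rich and in other cells, 5 were at least 1.5-fold higher and 33 lower in Lyz1-rich than in other AT2-like cells of both libraries. Among the 5 was Lyz1, which defined the rich cells. The others (Gm16062, Noc3l, Urb1 and Zfp770) had 15 to 36 UMIs in the rich cells of a library. In the vehicle and navitoclax library taken singly, 91 and 84 genes were higher and 247 and 231 lower. Of the 836 genes with at least 500 UMIs in the rich cells of each library, 1 was at least 1.5-fold higher in rich than in other AT2-like cells of both libraries, Lyz1 itself, and 1 was lower, the airway secretory gene Scgb1a1. Lyz2 was 1.48-fold and 1.49-fold lower in summed CPM, and was second lowest of the 836 in each library. Chil1 was at 2420 CPM in rich and 2304 CPM in other vehicle cells, and at 2891 and 2790 CPM in the navitoclax library. Chia1 was at 300.4 and 273 CPM in the vehicle and at 358 and 278 CPM in the navitoclax library. Across thinned AT2-like cells the Pearson correlation of Lyz1 with Lyz2 was −0.19 in the vehicle (2443 cells) and −0.208 in the navitoclax library (2188 cells). These cells share their library and depth, and both values are given as a description.

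Chil1, the chitinase-like lectin, was at 2316 CPM (2302 to 2330) in vehicle and 2801 CPM (2785 to 2816) in navitoclax AT2-like cells, a ratio of 1.21 (1.20 to 1.22). Nearly every AT2-like cell had a UMI, 98.8% and 99.1%, and the middle 80% of cells ran from 848 to 3730 CPM and from 1140 to 4305 CPM. Chil1 was thus seen throughout the class. After thinning the shares were 93.1% (92.0 to 94.1) and 95.7% (94.7 to 96.5), against 4.96% and 6.35% of fibroblast-like cells. Transitional-like cells were at 1203 and 1392 CPM, with the median cell at 365 and 597 CPM. Cluster 9 was at 1212 and 1156 CPM, whereas club-like cells were at 160 and 606 CPM and AT1-like cells at 294 and 66.3 CPM. Ciliated-like cells (24.6 and 24.1 CPM) lay below fibroblast-like cells (28.6 and 38.9 CPM). Fibroblast-like cells without cluster 37 were at 19.3 and 26.8 CPM, so the vehicle ciliated-like level lay above that.

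Chia1, the true chitinase, was at 275 CPM (270.5 to 280.3) in vehicle and 286 CPM (281 to 291) in navitoclax AT2-like cells. The ratio of 1.04 (1.01 to 1.07) was the nearest to 1 of the 5 genes. A UMI was seen in 69.5% and 71.3% of the cells, and in 29.9% of thinned cells of both libraries, against 0.791% and 0.441% of fibroblast-like cells. Its UMIs were spread over the class more evenly than those of Lyz1, with 53.0% in the top 10% of cells in both libraries. Transitional-like cells carried as much, 308 and 342 CPM, and cluster 9 the most, 862 and 656 CPM. This order rested in part on few cells. Without the 5 highest cells of each library, cluster 9 was at 560 and 248 CPM and transitional-like cells at 219 and 255 CPM. AT2-like cells were then at 267 and 272 CPM. In club-like cells it was at 60.3 and 149 CPM, and 1 navitoclax cell held 52.6% of the UMIs. The ciliated-like level of 18.1 and 17.6 CPM was above the 3.78 and 4.97 CPM of fibroblast-like cells.

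**Figure D3:**
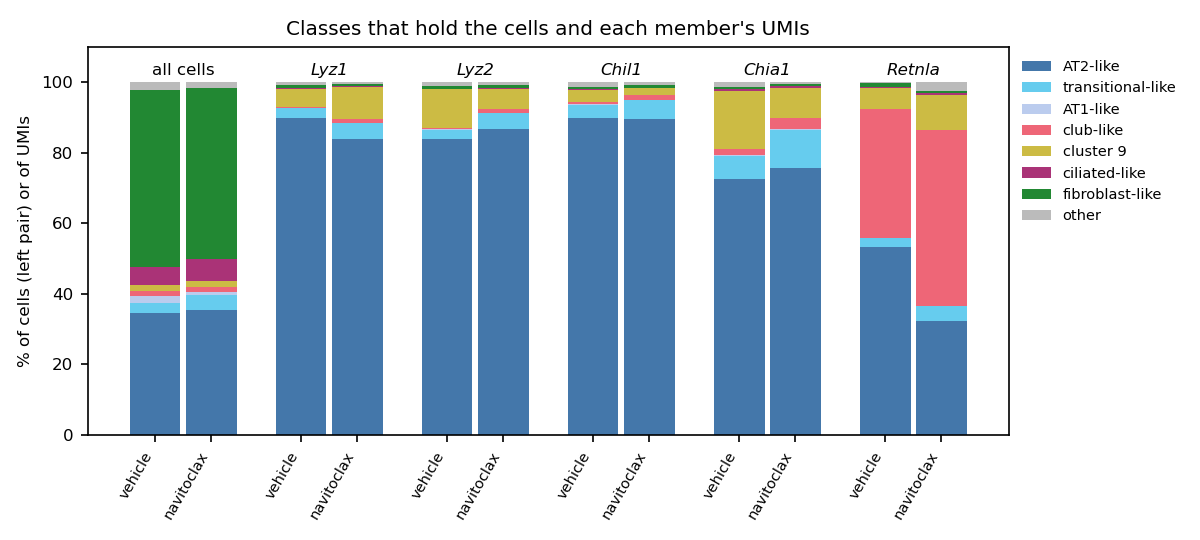
Share of all cells (left pair of bars) and of the UMIs of each gene held by each class, in percent, for the vehicle and the navitoclax library. AT2-like cells held 72.5% to 89.9% of the UMIs of Lyz1, Lyz2, Chil1 and Chia1, whereas club-like cells, 1.38% and 1.45% of cells, held 36.7% and 49.96% of Retnla.

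Retnla differed from the other 4 genes in its place. Club-like cells were 1.38% of vehicle and 1.45% of navitoclax cells but held 36.7% and 49.96% of all Retnla UMIs, and AT2-like cells held 53.3% and 32.1%. The level in club-like cells was 315 CPM (299 to 333) in vehicle and 1513 CPM (1471 to 1555) in navitoclax cells, a ratio of 4.80 (4.52 to 5.10). The number of club-like cells with at least 10 Retnla UMIs was 32 in each library, and cells with at least 50 numbered 10 and 19. Positive cells held 22.9 UMIs on average in the vehicle and 107 in the navitoclax library. The share with a UMI was 58.6% and 52.2%, and 27.0% (18.1 to 37.4) and 34.2% (23.5 to 46.3) after thinning. A single cell held 8.20% and 21.9% of the UMIs, and without the 5 highest cells of each library the ratio was 3.18 (2.94 to 3.44).

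The club-like class was made of clusters 12 and 13, whose makeup differed. Cluster 12, with 61 vehicle and 38 navitoclax cells, was at 343 and 1797 CPM of Retnla, a ratio of 5.25 (4.89 to 5.64). Cluster 13, with 38 and 52 cells, was at 252 and 1170 CPM, a ratio of 4.65 (4.12 to 5.25). The direction was therefore the same in each. Without the 5 highest cells of each library, the ratio was 2.74 (2.49 to 3.03) in cluster 12. In cluster 13 it was then 4.65 (3.34 to 6.61). For the lysozymes cluster 13 set the navitoclax values of the class, with 16368 of 20338 Lyz2 UMIs and 866 of 882 Lyz1 UMIs. In the vehicle library cluster 12 held 4507 of 5235 Lyz2 UMIs. Lyz2 was at 573 and 10863 CPM in cluster 13, against 1530 and 2187 CPM in cluster 12. In cluster 13 the AT2 gene Sftpc was at 5737 CPM in vehicle and 50346 CPM in navitoclax cells, and the median depth was 18197.5 and 4029 UMIs. The part of AT2 transcripts or of depth in the club-like differences of Lyz1, Lyz2, Chil1 and Chia1 was not tested. Club-like and AT1-like classes held fewer than 100 cells in at least 1 library, so no share of all genes past a fold is given for them. Cluster 9 was at 66.9 and 460 CPM of Retnla, a ratio of 6.88 (5.94 to 7.997), with 39 of 136 and 50 of 89 cells positive. Its 9 vehicle and 11 navitoclax cells with at least 10 UMIs held 69.7% and 87.9% of these UMIs. The cluster 9 ratio was 3.73 (2.99 to 4.67) without the 5 highest cells of each library. The airway secretoglobin genes differed in opposite directions there, with Scgb1a1 at 62469 and 123582 CPM and Scgb3a2 at 515 and 199 CPM. In club-like cells Scgb1a1 was at 578043 and 450612 CPM, a large part of all UMIs that differed between the libraries. Without the 20 most abundant genes the log2 ratio of Retnla in club-like cells was 1.93, in place of 2.26.

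In AT2-like cells Retnla was at 43.5 CPM (41.6 to 45.5) in vehicle and 72.0 CPM (69.5 to 74.5) in navitoclax cells, and the ratio was 1.65 (1.56 to 1.75). A UMI was seen in 14.7% and 20.5% of the cells, against 0.888% and 1.53% of fibroblast-like cells, and in 3.93% (3.19 to 4.78) and 5.44% (4.53 to 6.47) after thinning. A few cells held most of it. The 41 vehicle and 59 navitoclax cells with at least 10 UMIs held 64.1% and 72.0%, and 1 cell held 12.3% and 16.6%. The navitoclax cell, with 538 UMIs, lay in cluster 16, which was led by cell cycle genes. Without the 5 highest cells of each library the ratio was 1.47 (1.37 to 1.57), and without cluster 16 the log2 ratio fell from 0.73 to 0.51, below 1.5-fold. Transitional-like cells were at 25.7 CPM (91 UMIs) and 79.4 CPM (428 UMIs), a ratio of 3.08 (2.45 to 3.91), and 1 cell held 62.6% and 26.4%. Fibroblast-like cells were at 1.503 and 2.27 CPM and AT1-like cells had 2 UMIs in the vehicle and 0 of 52 cells positive in the navitoclax library, where 3 counts bound the level at 5.38 CPM. Ciliated-like cells had 10 and 54 UMIs. Outside the named classes, 239 navitoclax UMIs lay in 1 cell of the unnamed cluster 14. Genes such as Jchain, Ccl4 and Tyrobp led this cluster, and it scored 0.931 for leukocyte and 0.758 for endothelial markers. It also carried Sftpc at 151379 and 156178 CPM. The kind of that 1 cell was not tested.

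Set against all genes, 1 of the 5 members was at least 1.5-fold higher in the navitoclax library in AT2-like cells, Retnla, and 0 were lower, where 1.97% of 11016 genes with at least 100 UMIs were past that fold in either direction. Retnla had rank 62 among them from the top. The median log2 ratio of the 5 members was 0.22 and that of all genes −0.01. Since the members were chosen on these values, nothing is read from the count. In transitional-like cells 1 of 5 was past the fold upward, again Retnla, beside 2.65% of 6980 genes. In ciliated-like cells 1 of the 4 members with at least 100 UMIs was, Lyz1, beside 2.01% of 8345 genes. It was at 8.12 and 19.1 CPM there, and at 18.4 and 18.7 CPM in fibroblast-like cells, so the vehicle value lay below that of fibroblast-like cells and the navitoclax value close to it. Both values lay close to those of fibroblast-like cells without cluster 37 (9.72 and 18.6 CPM). In fibroblast-like cells 0 of 4 were past the fold, beside 2.27% of 11530 genes. Lyz2 came nearest, at 1.48-fold (1.44 to 1.51). Without cluster 37, whose 33 and 35 cells carried AT2 transcripts (Sftpc at 69430 and 66007 CPM), Lyz2 in fibroblast-like cells was at 339 and 433 CPM and 1.28-fold. Lyz1 was then at 9.72 and 18.6 CPM, 1.92-fold (1.64 to 2.24) in place of 1.02-fold. It was also past the fold in 7 of 10 alternatives of the processing, so the count of 0 depended on the setting.

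The libraries were unequally mixed within the AT2-like class, so each gene was also read within its 9 clusters of at least 30 cells. Clusters 0, 2 and 5 held mostly vehicle cells (736 and 148, 621 and 114, 428 and 152), and clusters 1 and 3 mostly navitoclax cells (56 and 774, 30 and 663). Lyz2 was higher in the navitoclax library in 9 of 9, with ratios from 1.10 to 1.90 and intervals above 1. Chil1 was higher in 8 of 9, and its ratio of 1.01 in cluster 2 had an interval that included 1. Chia1 was higher in 3, lower in 3 and neither in 3. Lyz1 was higher in 3 and lower in 6. Retnla went against its pooled value, since of 8 clusters with at least 100 UMIs its interval lay above 1 in 2, below 1 in 5 and across 1 in 1. It was lower in clusters 1 (152 and 106 CPM), 2 (48.3 and 25.8 CPM), 5 (44.8 and 31.6 CPM), 7 (21.2 and 14.8 CPM) and 8 (83.6 and 41.5 CPM). In cluster 10, with under 100 UMIs in all, it was at 61.3 and 10.6 CPM. It was higher in cluster 3 (11.9 CPM from 6 UMIs, and 35.7 CPM) and in cluster 16 (171 and 696 CPM). In vehicle cells of cluster 16 the airway gene Scgb1a1 was at 72199 CPM, against 1513 CPM in navitoclax cells. The pooled 1.65-fold of Retnla and its values within most single clusters thus went in opposite directions. Few cells held much of the Retnla, and the ratios within AT2-like clusters were not recomputed without their highest cells.

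**Figure D4:**
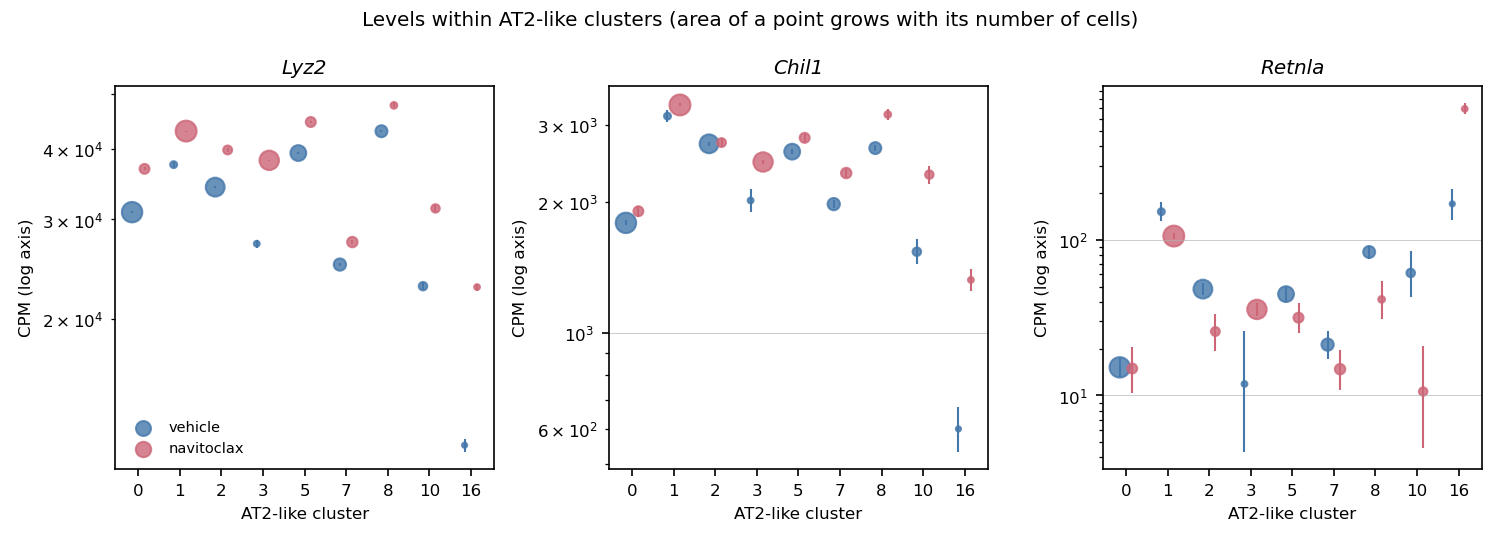
CPM (log axis) of Lyz2, Chil1 and Retnla in the 9 AT2-like clusters of at least 30 cells, in the vehicle (blue) and navitoclax (red) library, with 95% Poisson intervals, where larger points stand for more cells. Red points lie above blue points in all 9 clusters for Lyz2. For Retnla they lie below blue points in clusters 1, 2, 5, 7, 8 and 10, and only slightly below in cluster 0 (15.2 and 14.9 CPM).

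Genes whose pattern over single AT2-like cells was most like each member were named by the highest correlation among 3703 genes, after thinning and averaged over the libraries. For Lyz2 the nearest were Cxcl15, a chemokine of lung epithelium (0.467 in the vehicle and 0.46 in the navitoclax library), the surfactant protein genes Sftpa1 (0.329 and 0.385) and Sftpc (0.269 and 0.363), Chil1 (0.269 and 0.321) and Lcn2 (0.221 and 0.257). For Chil1 they were Lcn2, the siderophore-binding lipocalin (0.339 and 0.38), Cxcl15 (0.289 and 0.31), Lyz2, Lrg1 (0.258 and 0.235) and Fabp5 (0.221 and 0.24). Lcn2 and Lrg1 also lead cluster 1, where Chil1 stood at its highest of the 9 clusters, 3145 and 3337 CPM. The highest values for Lyz1 (0.054, with Chil1), Chia1 (0.11, with Lyz2) and Retnla (0.0917, with Lrg1) were too weak in sparse counts to be read.

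Most relatives of the members had few UMIs. Of the other 7 lysozyme-family genes none exceeded 33 UMIs over all cells (Lyzl4), and Lyzl1 and Lyg2 had 0. Of the other chitinase-family genes, Chil3, a chitinase-like gene of alveolar macrophages, had 15 UMIs, Chil4 had 2, Chit1, chitotriosidase, had 10 and Ovgp1, oviductin, had 163. Chid1 (15.5 and 15.2 CPM in AT2-like cells) and the lysosomal chitobiase gene Ctbs (9.60 and 9.78 CPM) were expressed at ratios of 0.978 (0.879 to 1.09) and 1.02 (0.889 to 1.17). Retnlg had 189 UMIs, Retn 9 and Retnlb 5. Macrophages also make Lyz2 and Retnla. Of 12 macrophage markers, 7 had no UMI in AT2-like cells of each library, among them Marco, Adgre1 and Siglecf, and the list summed to 10.8 and 10.6 CPM, mostly Cd68 (259 and 252 UMIs) and Mpeg1 (178 and 187). Of 8 neutrophil markers, 3 and 4 were at 0 in AT2-like cells, and the list summed to 0.856 and 1.11 CPM. In cluster 14 the macrophage list summed to 286 and 55.1 CPM, with 3 and 9 of its markers at 0.

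Genes that act around the members were read in AT2-like cells against the 1.97% of all genes past 1.5-fold. Of 23 genes of type 2 cytokine signalling and response, 8 had at least 100 UMIs and 0 were past 1.5-fold, with a median log2 ratio of 0.06. Il4ra, the receptor chain for IL-4 and IL-13, was at 18.2 and 20.8 CPM, a ratio of 1.14 (1.04 to 1.26), Arg1, arginase, at 4.19 and 3.56 CPM, and Spdef, a factor of mucous cells, at 1.58 and 1.78 CPM. The cytokine signalling inhibitor Socs1 was 1.40-fold (1.04 to 1.89) lower. Of 5 genes for binding partners of the Chil1 protein, 3 were measured and 0 were past the fold. Lgals3, which encodes galectin-3, was at 98.6 and 105 CPM, the hyaluronan receptor gene Cd44 at 72.3 and 75.7 CPM and the receptor gene Tmem219 at 31.1 and 30.2 CPM. Of 13 genes of secreted epithelial defence, 8 were measured and 1 was past the fold, Lcn2, at 1340 and 2062 CPM, a ratio of 1.54 (1.52 to 1.55). Their median log2 ratio was 0.00, near the −0.01 of all genes. The protease inhibitor gene Slpi was 1.27-fold (1.21 to 1.34) and Lbp, which encodes a binding protein of bacterial lipopolysaccharide, 1.22-fold (1.17 to 1.26) higher, and the airway gene Lypd2 was at 2.07 and 1.54 CPM.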

How the data were processed

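The authors deposited filtered tables of whole-number UMI counts per gene and barcode from droplet 3′ libraries, 1 per group, made with Cell Ranger 4.0.0 per the file headers, with mm10 named in the submitters' processing notes. Nothing read here states how reads that fit several genes were treated. Cells needed 500 or more detected genes and no more than 15% mitochondrial UMIs. Scrublet (scanpy 1.11.5, expected rate 6%) removed 222 vehicle and 217 navitoclax doublets. Free RNA was not subtracted. Both libraries were clustered together without integration (2000 variable genes without the 5 members, 30 components, 15 neighbours, leidenalg 0.10.2 at resolution 1). A cluster was named from at least 3 markers detected at 20 CPM and a score of at least 0.25, by a rule set after the data were seen. Other clusters stayed unnamed.

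For each class, UMIs were added up within a library and given as CPM with exact Poisson intervals, ratios with conditional exact intervals and shares with exact Clopper-Pearson intervals (scipy 1.17.1). With 1 library per group no test was possible. Shares were also taken after thinning cells to 2000 UMIs, which left out 31 vehicle and 23 navitoclax AT2-like, 10 and 17 club-like, and 320 and 289 fibroblast-like cells. Backgrounds counted genes past 1.5-fold among those with 100 UMIs or more over both libraries, and a floor is 3 counts. The calculations were tested on simulated data. For the ratios these were independent Poisson counts per gene, which do not cover UMIs that lie together in few cells. Named genes were the 5 members, measured relatives, up to 4 genes of each related list with the greatest difference, and the 5 most alike by correlation (biopython 1.88 aligned sequences). Members and lists were chosen with earlier results of these data known. The alternatives below were listed first, except leaving out or adding single clusters and leaving out 5 cells, which were chosen after seeing the data.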

Additional observations from a re-analysis of the deposited data

Results flagged for a closer look

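Lyz2 differed between the libraries in opposite directions in 2 classes. The log2 ratio of navitoclax to vehicle was 0.56 in fibroblast-like cells and −0.26 in ciliated-like cells, at levels of 482 and 711 CPM and of 457 and 382 CPM. Without cluster 37 the fibroblast-like value was 0.36. One vehicle ciliated-like cell held 35.9% of the UMIs there. The ciliated-like value turned to 0.342 without the highest cell of each library and to 1.475 with doublets kept, so the opposite direction was lost, and it was −0.0026 after thinning. Lyz1 differed in opposite directions between AT2-like clusters with at least 100 cells in each library, with a log2 ratio of 0.83 in cluster 7 and −0.47 in cluster 0. In these clusters 24 of 246 and 17 of 169 cells, and 64 of 736 and 10 of 148 cells, were rich in Lyz1. The differences between classes or clusters were not tested, since each group is 1 library.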

How the results depend on the processing

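All values are log2 ratios of navitoclax to vehicle, with at least 1.5-fold as the limit, and each follows its value as reported. The median within clusters covers only the 5 AT2-like clusters with at least 100 cells in each library. It leaves out clusters 1, 3, 8 and 16, and so both clusters in which Retnla was higher (3 and 16). In AT2-like cells Lyz1 (0.21) was 0.38 with up to 30% mitochondrial UMIs, 0.27 with doublets kept, 0.30 with the 5 genes among the variable genes, 0.23 with each library clustered alone, 0.29 with each cell called alone, 0.26 after thinning, 0.24 without the 20 most abundant genes, −0.20 as the median within clusters and 0.31 with cluster 9. In the same order Lyz2 (0.22) was 0.19, 0.16, 0.18, 0.16, 0.16, 0.23, 0.24, 0.22 and 0.17, and it was 0.21 at resolution 0.5, 0.26 at resolution 2 and 0.22 with the fibroblast-like level subtracted. Chil1 (0.27) was 0.26 at resolution 0.5, 0.34 at resolution 2, 0.29 with up to 30% mitochondrial UMIs, 0.35 with each library clustered alone, 0.26 with each cell called alone, 0.31 without the 20 most abundant genes and 0.11 as the median within clusters. Chia1 (0.06) kept its direction in 5 of 12 alternatives. It was −0.14 at resolution 2, −0.14 with up to 30% mitochondrial UMIs, −0.12 with doublets kept, −0.056 with the 5 genes among the variable genes, −0.28 with each library clustered alone, −0.025 with each cell called alone, −0.053 after thinning, 0.10 as the median within clusters and −0.055 with cluster 9. Retnla (0.73) was 1.09 at resolution 2, 1.02 with up to 30% mitochondrial UMIs, 0.92 with doublets kept, 0.97 with the 5 genes among the variable genes, 0.84 with each library clustered alone, 0.98 with each cell called alone, 0.48 after thinning, −0.52 as the median within clusters, 1.00 with cluster 9 and 0.51 without cluster 16. The cause of these shifts was not tested.

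In the other classes 201 of 221 values kept their direction. Chia1 in transitional-like cells (0.15) kept it in 8 of 11 and was −1.29 with each cell called alone. Chia1 in fibroblast-like cells (0.40) kept it in 8 of 10, with a lowest value of −1.003. In ciliated-like cells Chil1 (−0.030) kept it in 5 of 10 and reached 1.03 with doublets kept. Chia1 there (−0.040) kept it in 9 of 11. Lyz2 in AT1-like cells turned to 1.78 with each library clustered alone and 2.22 with each cell called alone, Chil1 there to 2.40 with each library clustered alone, and Chia1 to −0.023 without its highest cell. Lyz2 in ciliated-like cells (−0.26) turned to 0.342 without its highest cell and to 1.475 with doublets kept. At resolution 0.5, Lyz2 in club-like cells was −0.045 and Chia1 −0.14. Retnla stayed at least 1.5-fold higher in 11 of 11 alternatives in transitional-like cells (0.964 to 2.603). In club-like cells Retnla (2.26) did so in 11 of 11, from 1.78 after thinning to 2.66. Lyz1 in club-like cells (5.22) ran from 0.378 to 5.189 and was past the fold in 7 of 9. Lyz1 in fibroblast-like cells (0.025) was higher in all 10 alternatives, up to 0.99, and past the fold in 7 of them. With at least 500 UMIs, the percent of genes past the fold was 0.559 in AT2-like, 1.51 in transitional-like, 0.591 in ciliated-like and 0.959 in fibroblast-like cells. Alternatives that left too few UMIs gave no value. No paired analysis was possible because each group is 1 library.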
